A study of Mus musculus with 24 samples.

Results

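The members described here are the promoter peaks of the proteasome genes and of the F-box genes, whose products recognise substrates for ubiquitin ligases. A peak was taken where the symbol beside it was a proteasome symbol (Psm, a letter from a to g and a number) or began with Fbxo, Fbxl or Fbxw. The edge of the peak also had to lie within 1000 bp of the transcription start site that the file names. The rule used symbols, distances and peak widths, and no count or test result. It was set with earlier results of these data known. It gave 149 of the 144154 peaks in the file, namely 63 peaks of 43 proteasome-named genes and 86 peaks of 58 F-box-named genes. A further 6 of the 107 genes that match by name had no promoter peak (Fbxl15, Fbxo15, Fbxo2, Fbxw15, Psma2 and Psmc5). Of the members, Psmc3ip, a factor of meiotic recombination, and Fbxl12os, an antisense transcript, match by name alone and belong to neither family. Their 3 peaks count among the members but are left out of both families, which then hold 61 and 85 peaks.

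The mark was H3K27ac, an acetylation of histone H3 found at active promoters and enhancers, measured by low-input ChIP-seq in nuclei sorted for the neuronal protein NeuN from the dentate gyrus of male C57BL/6 mice of 12 weeks. There were 4 groups with 3 libraries each. HDACi-CFC mice had 30 mg/kg CI-994, which inhibits the class I histone deacetylases, by intraperitoneal injection 1 h before contextual fear conditioning (3 min in the chamber, then 2 foot shocks of 1 s at 0.2 mA), Veh-CFC mice had the solvent and the same conditioning, HDACi-Context mice had CI-994 and as long in the chamber with no shock, and Veh-Context mice had the solvent and no shock. All were killed 1 h after the test. Cage mates all had the same protocol, and an effect of the cage cannot be told apart from that of shock. Whether a library is 1 mouse or a pool is not stated, and the sample titles name the whole hippocampus. If replicates were not separate mice, the p-values measure only the spread between libraries.

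The proteasome is the barrel-shaped protease that degrades proteins tagged with ubiquitin. Its core is built of alpha and beta rings, with the cutting sites on beta subunits, and is capped by a regulatory particle whose ATPases unfold substrates and whose other subunits bind the ubiquitin chain and take it off. F-box proteins are the interchangeable receptors of SCF ligases (Skp1, cullin, F-box), and choose which protein is tagged. Those with WD40 repeats are named Fbxw, those with leucine-rich repeats Fbxl, and the rest Fbxo. In the hippocampus, ubiquitin-dependent breakdown of synaptic proteins is known to be needed for lasting memory.

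The proximal promoters of 5 genes on which the results turn are shown first, as the 250 bases before the start site in the strand of the gene (RefSeq, GRCm38.p6, which is mm10). They are Fbxw5 (chr2:25500500-25500749, plus strand), Fbxw2 (chr2:34826236-34826485, minus strand), Fbxo31 (chr8:121578807-121579056, minus strand), Psmb5 (chr14:54617996-54618245, minus strand) and Psmb9 (chr17:34187331-34187580, minus strand). Fbxw5 had the largest drug effect, Fbxw2 a fall that was called in both behaviours, Fbxo31 opposite calls at its peaks, Psmb5 the drop after shock in vehicle mice and Psmb9 a large rise after shock. Capitals mark matches, on either strand, to TGACGTCA (the cAMP response element), TGACNNNGC (the antioxidant response element), the site of nuclear respiratory factor 1, CCGGAAG (the ETS site), GGGCGG (the GC box) and CCAAT.
Fbxw5: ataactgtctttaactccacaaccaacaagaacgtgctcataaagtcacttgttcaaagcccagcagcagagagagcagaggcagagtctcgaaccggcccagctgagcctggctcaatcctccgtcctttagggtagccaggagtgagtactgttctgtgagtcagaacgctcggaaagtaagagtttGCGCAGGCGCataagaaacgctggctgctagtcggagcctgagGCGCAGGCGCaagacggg
Fbxw2: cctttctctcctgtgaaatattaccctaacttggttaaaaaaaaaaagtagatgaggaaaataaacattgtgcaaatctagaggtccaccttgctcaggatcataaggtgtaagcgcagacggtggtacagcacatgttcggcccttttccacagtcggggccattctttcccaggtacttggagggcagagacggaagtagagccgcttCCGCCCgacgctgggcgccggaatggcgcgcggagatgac
Fbxo31: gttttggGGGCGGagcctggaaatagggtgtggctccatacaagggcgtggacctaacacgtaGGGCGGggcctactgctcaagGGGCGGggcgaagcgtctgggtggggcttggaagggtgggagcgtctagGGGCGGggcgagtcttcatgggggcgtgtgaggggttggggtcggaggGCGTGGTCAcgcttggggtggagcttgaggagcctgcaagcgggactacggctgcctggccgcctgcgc
Psmb5: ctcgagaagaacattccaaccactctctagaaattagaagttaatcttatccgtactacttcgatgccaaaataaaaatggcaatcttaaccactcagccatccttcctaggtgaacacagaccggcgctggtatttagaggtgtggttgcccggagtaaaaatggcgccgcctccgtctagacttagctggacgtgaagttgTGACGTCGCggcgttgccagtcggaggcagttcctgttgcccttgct
Psmb9: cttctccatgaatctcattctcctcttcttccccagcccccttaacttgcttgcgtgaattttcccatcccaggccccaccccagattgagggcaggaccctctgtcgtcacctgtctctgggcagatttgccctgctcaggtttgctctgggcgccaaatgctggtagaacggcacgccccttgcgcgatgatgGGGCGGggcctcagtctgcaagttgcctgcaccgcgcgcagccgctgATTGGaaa
Fbxw5 holds a pair of nuclear respiratory factor 1 matches close to its start, Fbxo31 several GC boxes and a TGACNNNGC match, and Psmb5 also a TGACNNNGC match. The table held 79 of the 101 member genes. In the 300 bases around the start, CCGGAAG occurred in 37.1% of 35 proteasome promoters, 20.9% of 43 F-box promoters and 8.86% of all 32851 promoters. GGGCGG occurred in 57.1% of proteasome, 67.4% of F-box and 35.7% of all promoters, and the nuclear respiratory factor 1 site in 14.3%, 9.30% and 4.60%. TGACNNNGC was in 17.1% of proteasome, 11.6% of F-box and 12.4% of all promoters, TGACGTCA in 0 of 35, 1 of 43 (2.33%) and 1.79%, and CCAAT in 31.4%, 30.2% and 37.4%. TGACGTCA and TGACNNNGC can overlap. Members gave 1 promoter per gene, each of a gene with an H3K27ac promoter peak. All promoters were every listed start site, whatever the type of gene and with or without a peak, so these sets are unlike. These are matches of letters, and binding was not measured. A divergent gene started within 1000 bp at 3 of 35 proteasome genes and 7 of 43 F-box genes, against 12.2% of protein-coding genes. Such a neighbour starts 244 bp from Fbxw5 (C8g) and 226 bp from Psmb9 (Tap1, a peptide transporter of antigen presentation), and both starts lie within the same peak, so the acetylation there cannot be told apart between the neighbours. The peaks of Fbxo44 and Fbxl18 also hold the start of another gene.

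Most members were plain active promoters. By the chromatin state deposited for each peak, 110 of 149 (73.8%) were strong promoters, against 58.5% of all 21507 promoter peaks, 24 were primed enhancers and 9 active enhancers. Only 34 covered the start site itself, while 67 lay just downstream and 48 just upstream, and 48 genes had a peak on each side. Peaks were 253 to 38548 bp wide with a median of 1311 bp, the widest being that of Fbxw7, the receptor that targets cyclin E and c-Myc. Mean levels, as counts scaled to the TMM-adjusted size of the library (CPM) and per kb of peak, had a median of 3.62 in members and 3.48 in all promoter peaks. They ran from 1.94 at Fbxo39 to 7.72 at the upstream peak of Psmf1, an inhibitor of the proteasome.

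Libraries held 6639158 to 16734757 counts in peaks. The members took 0.125 to 0.129% of the counts in HDACi-CFC libraries, 0.132 to 0.136% in Veh-CFC, 0.102 to 0.107% in HDACi-Context and 0.116 to 0.119% in Veh-Context. All promoter peaks together took 25.2 to 25.4%, 24.9 to 26.7%, 18.3 to 19.6% and 21.4 to 22.5% in the same order of groups. The promoter share thus moved with the groups across the whole genome, and the part that this has in each result below was not tested. A scaling on promoter peaks alone, in which a member is read against other promoters, is therefore given beside the counts. It moved the median log2 fold change of all peaks by 0.30 for the drug in Context mice, 0.18 for the drug over both behaviours, −0.25 for shock in vehicle mice and −0.49 for shock in drug mice. Scaling by library totals moved it by −0.13 in that last comparison. In a bulk sample, fewer cells of a type and less acetylation per cell cannot be told apart.

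**Figure D1:**
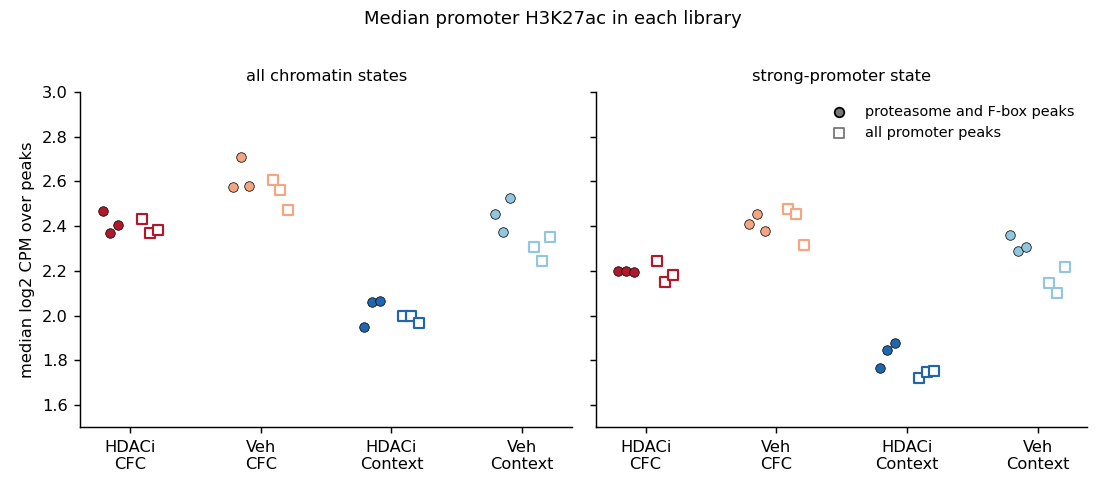
Median log2 CPM over member peaks (circles) and over all promoter peaks (squares) in each of the 12 libraries, for all chromatin states on the left and the strong-promoter state on the right. HDACi-Context libraries are lowest for members, with medians of 1.95 to 2.07, and for all promoters. Between HDACi-CFC and Veh-Context libraries the sets part. For all states, member medians overlap (2.37 to 2.47 and 2.37 to 2.53). Those of all promoters are higher in HDACi-CFC (2.37 to 2.43 against 2.24 to 2.35). In the strong-promoter state, members are lower in HDACi-CFC (2.196 to 2.199 against 2.29 to 2.36). There the medians of all promoters overlap (2.15 to 2.24 and 2.10 to 2.22).

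What CI-994 did in mice that were not shocked was the larger of the drug effects by count. In HDACi-Context against Veh-Context mice, 36 of 149 member peaks fell and 0 rose, by the quasi-likelihood test of edgeR at an adjusted p under 0.05. Of all tested peaks 5.85% fell and 2.73% rose, but of all promoter peaks 21.3% fell and 0.917% rose, so the 24.2% of members that fell was near the share of promoters in general. The median log2 fold change was −0.30 for members and −0.30 for all promoter peaks. The falls reached 16 proteasome and 16 F-box genes, beside Psmc3ip and Fbxl12os. On the promoter scale 13 members were higher and 12 lower, where 9.16% of promoter peaks were higher and 9.57% lower, and the median was 0.00. The falls numbered 14 without Veh-Context replicate 3, 22 without HDACi-Context replicate 2 and 23 without HDACi-Context replicate 3, and 12 of the 36 calls were made in all 12 fits that left out a library.

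Fbxw5, an F-box protein with WD40 repeats that serves cullin ligases, fell most. Its peak (chromosome 2, 25500192 to 25502016, over the start site) had 3.68, 2.96 and 1.29 CPM in HDACi-Context libraries, against 8.06, 11.2 and 12.7 CPM in Veh-Context libraries. All HDACi-Context libraries lay below all Veh-Context libraries. The log2 fold change was −2.00 ± 0.23 (SE, n = 3 per group, edgeR adjusted p = 3.1e-06), and it was −1.70 ± 0.21 on the promoter scale. In CFC mice the same peak had 11.3, 12.2 and 11.5 CPM with the drug and 20.7, 18.6 and 14.0 CPM with vehicle, which did not overlap but did not pass (−0.61 ± 0.19, edgeR adjusted p = 0.14).

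Within the proteasome, falls in Context mice lay in the beta ring, the non-ATPase lid and base subunits, the activators and the assembly chaperones. Of 8 beta ring peaks 4 fell (median −0.52), of 18 peaks of non-ATPase subunits 7 fell (−0.55), of 7 peaks of activators and the inhibitor 3 fell (−0.46) and of 10 of assembly chaperones 4 fell (−0.55). None of 8 alpha ring peaks (−0.30) and none of 7 ATPase peaks (−0.19) passed. Of all promoter peaks 21.3% fell, and the roles hold few peaks each. On the promoter scale 4 proteasome peaks were lower (1 of the beta ring, 1 non-ATPase and 2 of activators and the inhibitor) and 1 ATPase peak was higher. There 9.16% of promoter peaks were higher and 9.57% lower. Psmb5, the subunit with chymotrypsin-like activity, had 2.36, 3.25 and 4.01 CPM in HDACi-Context libraries against 6.57, 6.92 and 6.98 CPM in Veh-Context libraries at its upstream peak (chromosome 14, 54618007 to 54618733). The groups did not overlap (log2 fold change −1.08 ± 0.20, edgeR adjusted p = 0.00023).

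Regulators and assembly factors of the proteasome gave values of the same size. Psmf1, the inhibitor of the core, had 2.50, 2.84 and 2.99 CPM in HDACi-Context and 5.52, 8.39 and 5.66 CPM in Veh-Context libraries at its upstream peak (chromosome 2, 151741331 to 151741876), a log2 fold change of −1.18 ± 0.20 (edgeR adjusted p = 9.9e-05). Its downstream peak in intron 1 did not pass (−0.21 ± 0.24). Psme2, a subunit of the interferon-inducible activator, had 3.06, 2.38 and 2.04 CPM in HDACi-Context libraries, all below the 3.96, 5.74 and 5.88 CPM in Veh-Context libraries (−1.04 ± 0.22, edgeR adjusted p = 0.0010). Psme3, of the nuclear activator, fell by 0.64 ± 0.18 on the log2 scale (edgeR adjusted p = 0.015), while both peaks of Psme4 did not pass (−0.43 and 0.09). The lid subunit Psmd8 fell at both of its peaks (−1.20 ± 0.29 and −0.80), the deubiquitinase Psmd14 at its upstream peak (−1.01 ± 0.33, edgeR adjusted p = 0.044), and the ubiquitin receptor Psmd4 at its upstream peak (−0.72 ± 0.20). The assembly chaperone Psmg2 fell by 0.96 ± 0.28 on the log2 scale. On the promoter scale the upstream peak of Psmf1 (−0.88 ± 0.21), Psme2 (−0.74 ± 0.22) and the first of these Psmd8 peaks (−0.90 ± 0.29) were called lower. Psme3, Psmd14, Psmd4, Psmg2 and the other peak of Psmd8 were not called on that scale.

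The 3 peaks of tissue-specific beta subunits did not pass in Context mice. Psmb9, a subunit of the immunoproteasome, had 0.626, 0.638 and 0.340 CPM in HDACi-Context libraries and 0.523, 1.47 and 1.40 CPM in Veh-Context libraries, so the groups overlapped (−0.99 ± 0.43, edgeR adjusted p = 0.15). Psmb10, another immunoproteasome subunit, had 5.21, 3.07 and 3.06 against 5.75, 8.69 and 11.0 CPM (HDACi-Context and Veh-Context), and did not pass (−1.17 ± 0.39, edgeR adjusted p = 0.11).

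Among F-box genes, 5 of 23 Fbxl peaks (median −0.24), 7 of 49 Fbxo peaks (−0.20) and 4 of 13 Fbxw peaks (−0.17) fell in Context mice, where 21.3% of promoter peaks did. Set against other promoters, 12 F-box peaks were higher and 7 lower, where 9.16% of promoter peaks were higher and 9.57% lower. Fbxw2 had 1.32, 2.49 and 1.43 CPM in HDACi-Context against 4.40, 3.83 and 3.82 CPM in Veh-Context libraries at its upstream peak, with no overlap (−1.18 ± 0.25, edgeR adjusted p = 0.0012). Fbxl2, an F-box protein that is anchored to membranes, fell by 0.84 ± 0.16, Fbxw11, a receptor of beta-catenin and I-kappa-B, by 0.71 ± 0.17 at its upstream peak, and Fbxo41, a neuronal F-box protein, by 0.53 ± 0.13 at its upstream peak, all on the log2 scale. The brain-enriched Fbxl16 fell at 1 of its peaks (−0.51 ± 0.15). On the promoter scale the upstream peak of Fbxw2 (−0.88 ± 0.25) and Fbxl2 (−0.54 ± 0.17) were called lower. Fbxw11, Fbxo41 and Fbxl16 were not called on that scale. Fbxo48 had a fold change larger than most (−1.61) but under 1.1 CPM in every library of both groups, and its groups overlapped. Peaks of Fbxw7, Fbxl20, Fbxl21, Fbxo7, Fbxo11, Fbxo32 and Fbxo45 did not pass in either direction on the main scale, with log2 fold changes of −0.49 to 0.19. On the promoter scale the wide peak of Fbxw7 (0.33 ± 0.11), the peak of Fbxl20 (0.50 ± 0.17) and a peak of Fbxo11 (0.41 ± 0.14) were called higher.

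**Figure D2:**
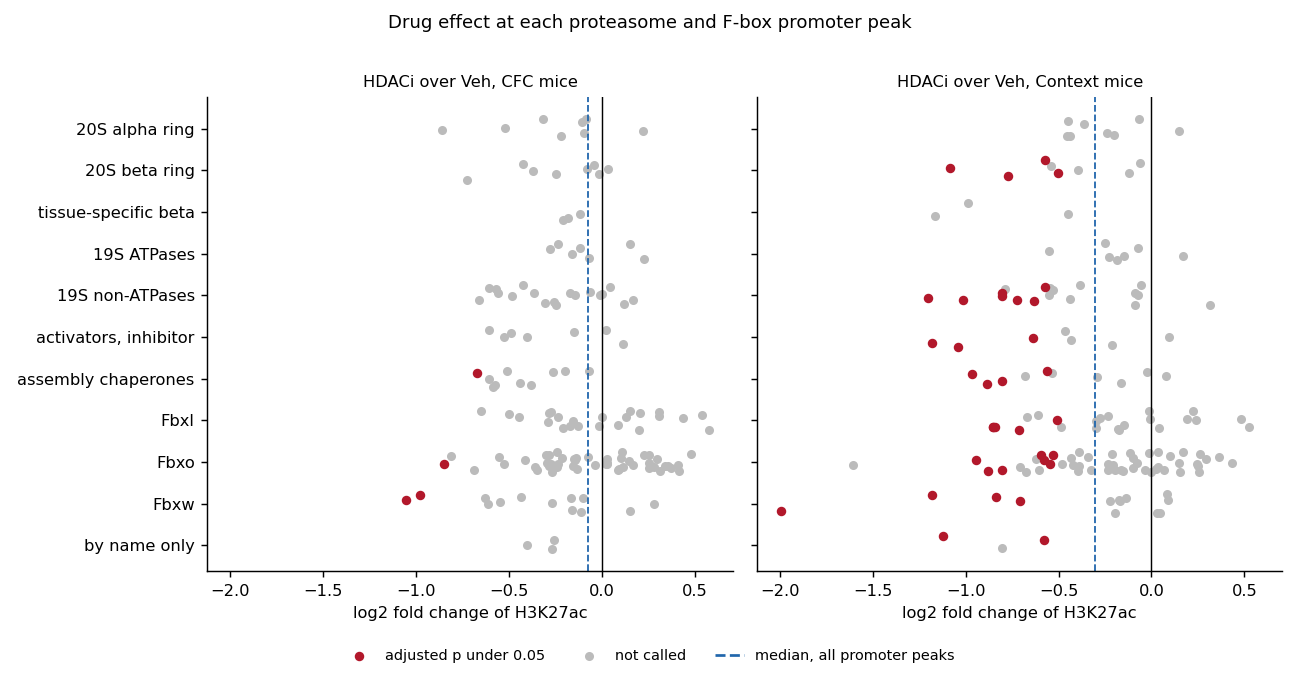
Log2 fold change of H3K27ac, HDACi over Veh, at each of the 149 member peaks by role, for CFC mice on the left and Context mice on the right. Red points passed (edgeR adjusted p under 0.05, 4 and 36 peaks), grey points did not, and the dashed line is the median of all promoter peaks (−0.08 and −0.30).

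In shocked mice the drug moved fewer of these peaks past the threshold. In HDACi-CFC against Veh-CFC mice 4 members fell and 0 rose, where 0.435% of all tested peaks fell and 0.483% rose, and 2.13% of promoter peaks fell and 0.652% rose. The median was −0.16 for members and −0.08 for all promoters, and 1 member was lower on the promoter scale, where 1.23% of promoter peaks were higher and 1.23% lower. Fbxw2 fell at both of its peaks: the upstream one had 1.88, 1.87 and 2.27 CPM in HDACi-CFC libraries against 4.24, 4.45 and 3.82 CPM in Veh-CFC libraries (−1.06 ± 0.26, edgeR adjusted p = 0.035). Its levels in HDACi libraries were thus below those in Veh libraries in both behaviours, with no overlap. Fbxo28 had 3.91, 3.02 and 2.77 CPM in HDACi-CFC libraries against 4.11, 7.00 and 6.51 CPM in Veh-CFC libraries (−0.85 ± 0.22, edgeR adjusted p = 0.048). Psmd5, an assembly chaperone of the regulatory particle, had 5.22, 4.99 and 5.96 against 8.22, 9.12 and 8.49 CPM (HDACi-CFC and Veh-CFC) at its downstream peak (−0.67 ± 0.18, edgeR adjusted p = 0.045). In both genes all HDACi-CFC libraries lay below all Veh-CFC libraries. These calls were fragile: leaving out any HDACi-CFC library, Veh-CFC replicate 2 or Veh-CFC replicate 3 gave 0 falls, Veh-Context replicate 3 gave 1, and HDACi-Context replicate 2 or Veh-Context replicate 1 gave 2. DESeq2 gave 1 fall and 1 rise.

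Both drug comparisons rest on separate libraries. They shared 2 called members, the upstream peaks of Fbxw2 and Fbxo28, which is 50.0% of the 4 and 5.56% of the 36. Of all promoter peaks 2.13% and 21.3% fell in these comparisons, and their own overlap is not given here. The difference between the drug effects was itself tested, and no member passed; an unadjusted p under 0.05 was reached by 22 higher and 4 lower members, which is 14.8% and 2.68%, against 16.6% and 0.796% of promoter peaks (DESeq2 also gave 0 calls in each direction). The median was 0.18 for members and 0.21 for promoter peaks, and on the promoter scale 6 members were higher and 11 lower at that unadjusted p. The share of all promoter peaks at that p on the promoter scale is not given here. On that scale the medians were −0.06 for members and −0.03 for promoter peaks, and 0 peaks of either set passed at an adjusted p under 0.05. Of all tested peaks 0.034% passed higher and 0.000694% lower, and of promoter peaks 0.14% higher. Fbxw5 came nearest, its drop being 1.38 ± 0.30 smaller on the log2 scale in CFC than in Context mice (edgeR adjusted p = 0.074), followed by the downstream peak of Fbxo31 (0.97 ± 0.23, edgeR adjusted p = 0.079). Leaving out HDACi-Context replicate 1, Veh-CFC replicate 1 or Veh-Context replicate 1 gave 6, 4 and 2 members past the threshold, all higher.

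Over both behaviours 38 members fell and 3 rose, where 5.81% of all tested peaks fell and 3.52% rose and 21.9% of promoter peaks fell and 2.42% rose. The families differed in their counts, which were not tested against each other: 21 of 61 proteasome peaks fell and 0 rose (median −0.34), whereas 15 of 85 F-box peaks fell and 3 rose (−0.16), beside −0.19 for all promoters. The families were not matched here for chromatin state, which went with the drug effect in Context mice, as given below. The part of state in these counts was not tested. On the promoter scale the split was 13 higher and 22 lower for members, with 0 higher and 11 lower in the proteasome family and 13 higher and 10 lower among F-box peaks, where 9.33% of promoter peaks were higher and 11.2% lower. The falls included Fbxw5 (−1.31 ± 0.15), Fbxw2 (−1.12 ± 0.18), Psmd8 (−0.93 ± 0.22), Psmf1 (−0.83 ± 0.15), Psmb5 (−0.75 ± 0.16) and the beta ring subunit Psmb2 (−0.75 ± 0.16), with 29 of the 41 calls made in all 12 fits that left out a library. The rises were small. Fbxo34, at a wide intronic peak, had 67.8, 77.9 and 74.3 CPM in HDACi-CFC against 51.1, 59.5 and 58.9 CPM in Veh-CFC libraries, and 51.4, 55.9 and 49.5 CPM in HDACi-Context against 43.7, 50.1 and 47.9 CPM in Veh-Context libraries (0.26 ± 0.08, edgeR adjusted p = 0.022). Leaving out HDACi-CFC replicate 2 or HDACi-Context replicate 2 gave 0 rises, and HDACi-CFC replicate 3 or Veh-Context replicate 1 gave 1.

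Fbxo31, the receptor that targets cyclin D1 and that is known to act in neurons, carried opposite calls at its peaks. The upstream intergenic peak, in the primed-enhancer state, had 12.0, 10.9 and 12.7 CPM in HDACi-CFC against 10.5, 6.89 and 8.35 CPM in Veh-CFC libraries, and 9.25, 7.88 and 6.60 CPM in HDACi-Context against 6.79, 5.30 and 7.35 CPM in Veh-Context libraries. It rose over both behaviours (0.37 ± 0.12, edgeR adjusted p = 0.045). The peak in intron 1, in the strong-promoter state, had 5.01, 4.52 and 3.47 CPM in HDACi-Context against 6.87, 8.10 and 10.0 CPM in Veh-Context libraries, and fell over both behaviours (−0.46 ± 0.12, edgeR adjusted p = 0.0070). In CFC mice the intronic peak did not differ beyond its spread, with 11.6, 12.9 and 13.6 CPM in HDACi-CFC and 13.0, 12.0 and 12.5 CPM in Veh-CFC libraries. Neither call over both behaviours was made in all 12 fits that left out a library. On the promoter scale the upstream peak was higher (0.55 ± 0.12) and the intronic peak did not pass over both behaviours (−0.28 ± 0.12), whereas in Context mice they were called higher (0.56 ± 0.17) and lower (−0.64 ± 0.18). Of the 48 genes with a pair of peaks, this was the only gene with opposite calls on the main scale in any of the comparisons. Fbxo28 also had them on the promoter scale, over both behaviours (−0.65 ± 0.15 upstream and 0.46 ± 0.11 at its other peak).

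The state and place of a peak went with the drug effect in Context mice. Of 110 strong-promoter members 34 fell (median −0.44), against 27.6% of all strong-promoter peaks at promoters (−0.42), and 0 of 24 primed-enhancer members fell (−0.07). Of the 34 peaks that cover the start site 14 fell (41.2%, median −0.54), of 48 upstream peaks 13 fell (27.1%, −0.41) and of 67 downstream peaks 9 fell (13.4%, −0.18). All promoter peaks showed 34.4%, 19.6% and 13.6% by the same places. Read on the promoter scale, 2 of the members over the start site were higher and 6 lower, of the upstream ones 3 and 4, and of the downstream ones 8 and 2. There 12 strong-promoter members were lower and 6 higher, and 5 primed-enhancer members were higher and 0 lower. Of all promoter peaks 9.16% were higher and 9.57% lower on that scale. Their shares by state or place on that scale are not given here, nor is the main-scale share of all primed-enhancer promoter peaks. Whether these splits are particular to the members was not tested. Away from promoters, the 562 tested peaks near the same genes had a median of −0.01, with 21 lower and 14 higher. Of all tested peaks 5.85% were lower and 2.73% higher.

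**Figure D3:**
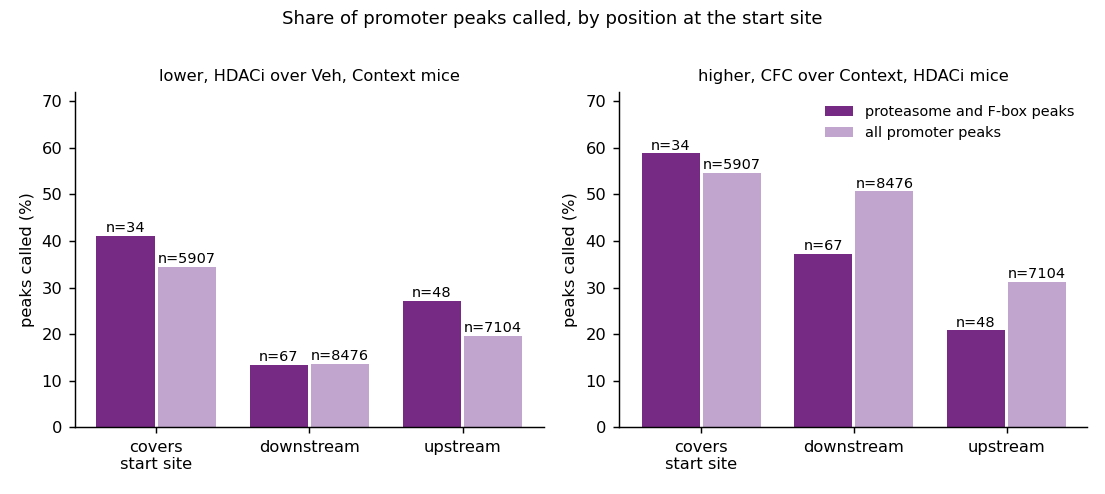
Percent of peaks that passed, for members (dark bars) and all promoter peaks (light bars), by whether the peak covers the start site or lies downstream or upstream of it, with the number of peaks above each bar. Peaks over the start site had the highest shares on both sides, 41.2% of 34 members lower with the drug in Context mice and 58.8% higher with shock in HDACi mice.

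What shock did was asked in each drug group. In vehicle mice, Veh-CFC against Veh-Context, 21 members rose and 1 fell, where 4.41% of all tested peaks rose and 2.74% fell, and 14.1% of promoter peaks rose and 0.47% fell. Members thus rose as often as promoters at large (14.1%), with a median of 0.24 against 0.25. On the promoter scale 6 were higher and 4 lower, where 6.64% of promoter peaks were higher and 4.94% lower. No call was made in all 12 fits that left out a library: the rises numbered 1 without Veh-CFC replicate 1, 4 without Veh-Context replicate 1, 10 without Veh-Context replicate 2 and 13 without Veh-CFC replicate 2. DESeq2 called 13 rises.

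Psmb5 was the fall, lost when Veh-CFC replicate 1 or Veh-Context replicate 1 was left out. It had 3.34, 4.14 and 3.96 CPM in Veh-CFC libraries against 6.57, 6.92 and 6.98 CPM in Veh-Context libraries (−0.83 ± 0.22, edgeR adjusted p = 0.015). The Veh-Context libraries were high and the other 9 libraries, at 2.36 to 4.14 CPM, lay below them. The rises included Psmb9 with 3.08, 2.01 and 2.97 CPM in Veh-CFC against 0.523, 1.47 and 1.40 CPM in Veh-Context libraries (1.29 ± 0.37, edgeR adjusted p = 0.025). Fbxl6, an F-box protein with leucine-rich repeats, had 6.81, 5.09 and 4.67 CPM in Veh-CFC against 2.39, 1.77 and 2.87 CPM in Veh-Context libraries (1.18 ± 0.25, edgeR adjusted p = 0.0035). Fbxo32, the muscle atrophy ligase also known as atrogin, rose at both of its peaks (0.71 ± 0.16 and 0.83 ± 0.24). Single peaks rose at Psmd3 of the lid (0.98 ± 0.28), Psme2 (0.90 ± 0.20), Fbxl16 (0.76 ± 0.15), Fbxw5 (0.75 ± 0.20), Fbxl20, a ligase receptor of the synaptic protein Rim1 (0.64 ± 0.17), and Psmf1, at its downstream peak (0.80 ± 0.24). At the upstream peak of Psmf1 the value was −0.52 ± 0.21 and did not pass.

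**Figure D4:**
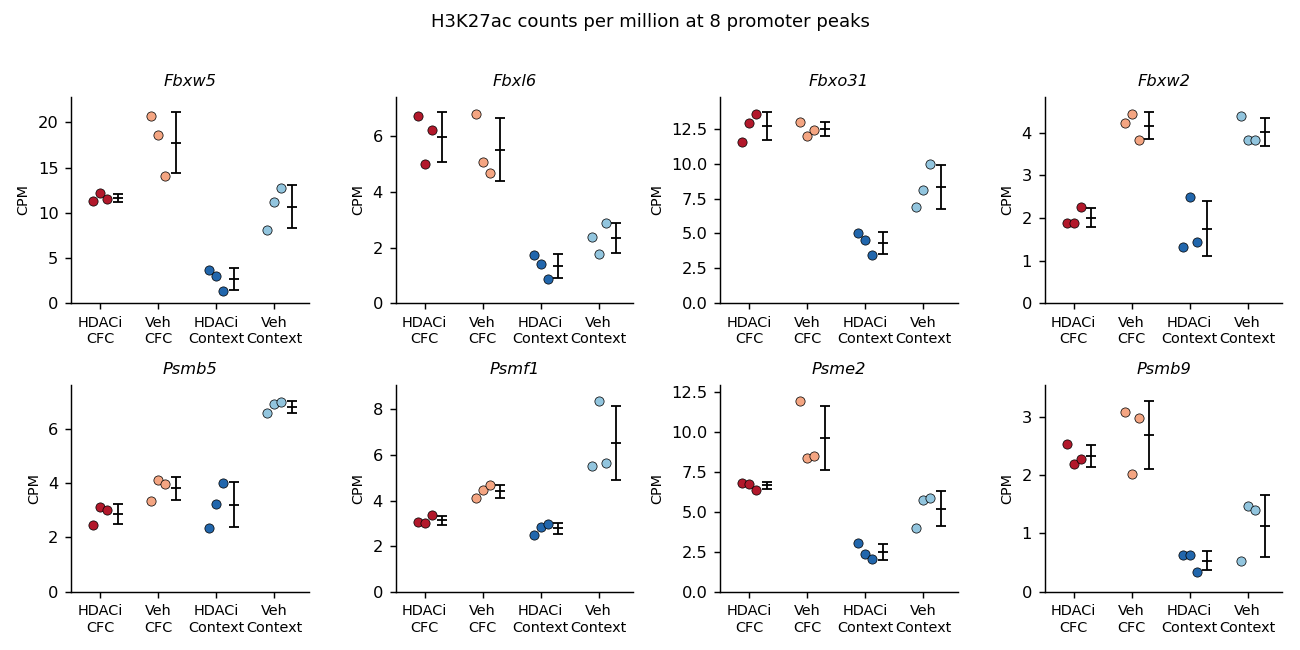
CPM in each library at 8 promoter peaks, with the mean and SD beside the points of each group (n = 3). Psmb5 and Psmf1 are high in Veh-Context libraries, Fbxw2 is low in both HDACi groups, and Fbxw5, Fbxl6, Fbxo31 and Psme2 are lowest in HDACi-Context libraries. Psmb9 is low in both Context groups, which overlap.

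In drug mice, HDACi-CFC against HDACi-Context, shock went with more calls. There 55 members rose and 3 fell, where 20.2% of all tested peaks rose and 17.8% fell, and 45.3% of promoter peaks rose and 2.02% fell. The 36.9% of members that rose was below the share of promoters at large, and the median was 0.31 against 0.42. On the promoter scale the split turned to 19 higher and 34 lower, with a median of −0.18, where 20.7% of promoter peaks were higher and 21.6% lower. The sign turned from higher to lower in 62 of 149 members. Of the 58 calls, 40 were made in all 12 fits that left out a library. These rises share the HDACi-Context libraries with the drug effect in Context mice, so the comparisons are not independent.

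The largest rise was at Fbxl6, whose peak in intron 3 (chromosome 15, 76536847 to 76538237) had 6.74, 4.99 and 6.22 CPM in HDACi-CFC against 1.74, 1.39 and 0.884 CPM in HDACi-Context libraries. The groups were far apart (2.16 ± 0.24, edgeR adjusted p = 3.3e-09). Fbxw5 rose by 2.13 ± 0.23, on the values given above, and Fbxo48 by 2.11 ± 0.62 at under 1.3 CPM. Psmb9 had 2.54, 2.18 and 2.27 CPM in HDACi-CFC against 0.626, 0.638 and 0.340 CPM in HDACi-Context libraries (2.10 ± 0.37, edgeR adjusted p = 2.5e-05), and Psmb10 had 14.4, 9.36 and 12.9 against 5.21, 3.07 and 3.06 CPM (1.72 ± 0.37, edgeR adjusted p = 0.0054). In neither did the groups overlap. Fbxl19, a receptor of cytokine receptors that also binds CpG islands, rose by 1.75 ± 0.31 at its intronic peak, Fbxo25 by 1.60 ± 0.46, the intronic peak of Fbxo31 by 1.55 ± 0.17 and Fbxo6, a receptor of glycoproteins, by 1.44 ± 0.19.

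By role, 23 of 61 proteasome peaks rose and 0 fell, and 29 of 85 F-box peaks rose and 3 fell, where 45.3% of promoter peaks rose. Set against other promoters, 7 proteasome peaks were higher and 13 lower, and 11 F-box peaks were higher and 21 lower. There 20.7% of promoter peaks were higher and 21.6% lower. The rises took in 4 of 8 beta ring peaks, 3 of 7 ATPase peaks, 7 of 18 peaks of non-ATPase subunits, 2 of 8 alpha ring peaks, 3 of 7 of activators and the inhibitor, 2 of 10 of assembly chaperones and 2 of 3 of tissue-specific beta subunits. Among F-box peaks they took in 8 of 23 Fbxl, 18 of 49 Fbxo and 3 of 13 Fbxw peaks. The neuronal genes Fbxl16 (1.23 ± 0.21 and 1.35 ± 0.15) and Fbxo41 (0.78 ± 0.15 and 0.44 ± 0.13) rose at both of their peaks, although the second of Fbxo41 was at −0.05 ± 0.14 on the promoter scale. The falls were Fbxo43 and Fbxo5, inhibitors of the anaphase-promoting complex (−0.84 ± 0.32 and −0.58 ± 0.23), and Fbxo8 (−0.50 ± 0.17). They were lost in DESeq2 and without HDACi-CFC replicate 1, HDACi-CFC replicate 2, HDACi-Context replicate 2 or HDACi-Context replicate 3. Fbxw7 had 212, 211 and 210 CPM in HDACi-CFC and 191, 205 and 197 CPM in HDACi-Context libraries over its wide peak and did not pass (0.09 ± 0.10).

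**Figure D5:**
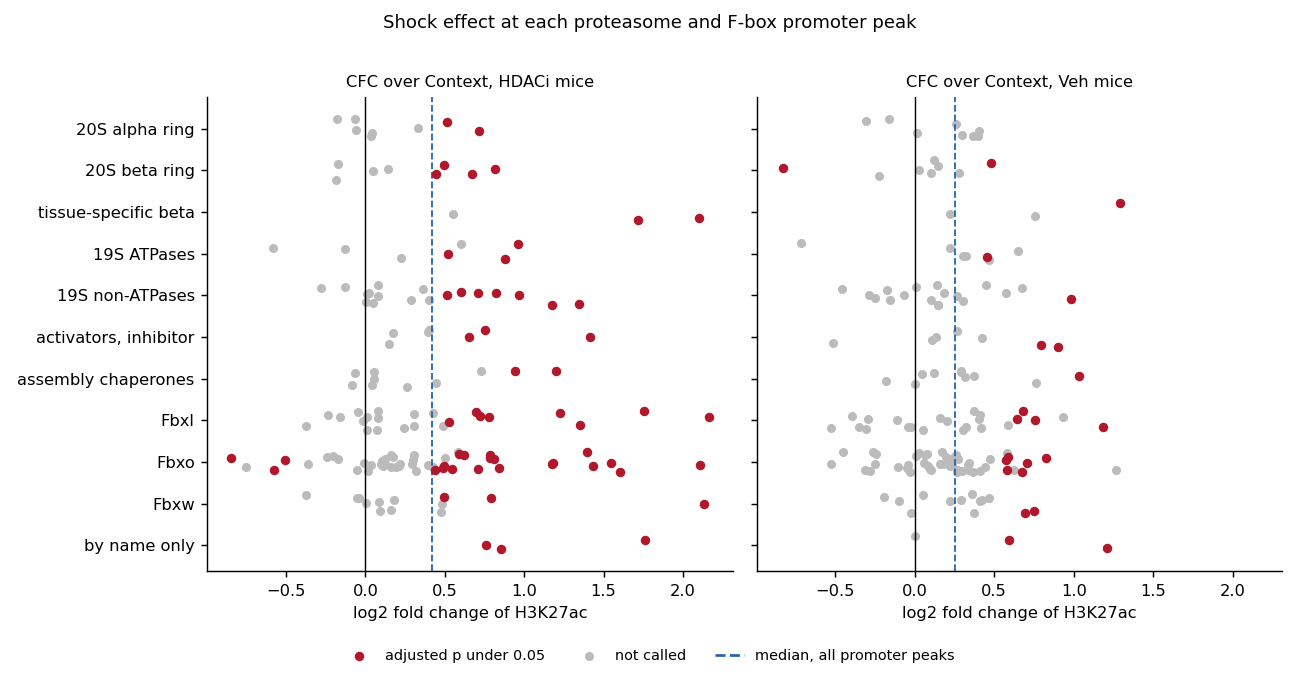
Log2 fold change of H3K27ac, CFC over Context, at each of the 149 member peaks by role, for HDACi mice on the left and Veh mice on the right. Red points passed (58 and 22 peaks), grey points did not, and the dashed line is the median of all promoter peaks (0.42 and 0.25).

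The shock effects in vehicle and in drug mice rest on separate libraries and shared 18 rises, which is 85.7% of the 21 and 32.7% of the 55, and 0 falls. Of all promoter peaks 14.1% and 45.3% rose in these comparisons. Their own overlap is not given here, so the shared rises cannot be read as particular to the members. Peaks over the start site rose most often in drug mice, 20 of 34 (58.8%, median 0.60), against 54.6% of all promoter peaks over a start site (on the promoter scale 9 were higher and 5 lower), while 10 of 48 upstream members rose (20.8%, median 0.10) against 31.2% (on the promoter scale 2 higher and 13 lower). On that scale 20.7% of all promoter peaks were higher and 21.6% lower, and their shares by place are not given here.

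Genes that act beside the members were read from lists of known partners. In Context mice with the drug, 6 of 34 promoter peaks of the SCF core and its neddylation enzymes fell (median −0.33), 7 of 18 of ubiquitin genes and activating enzymes (−0.48), 6 of 28 of proteasome partners (−0.24) and 2 of 9 of F-box proteins under other symbols (−0.31), with 0 rises in each list, where 21.3% of promoter peaks fell. Read on the promoter scale, the lists had 3, 2, 4 and 2 peaks higher and 3, 3, 3 and 1 lower, in the same order. On that scale 9.16% of promoter peaks were higher and 9.57% lower. The falls included Pomp, the chaperone of core assembly (−1.65 ± 0.23), Cand1, which exchanges F-box proteins on cullin (−1.33 ± 0.16), Btrc, the F-box protein beta-TrCP (−1.18 ± 0.28), Nfe2l1, the activator of proteasome genes (−0.96 ± 0.19), and Skp1a, which binds the F-box (−0.83 ± 0.19). With shock in drug mice, 12 of 34, 8 of 18, 9 of 28 and 4 of 9 rose in the same order, where 45.3% of promoter peaks rose. On the promoter scale 2, 3, 5 and 2 were higher and 9, 5, 9 and 2 lower. There 20.7% of promoter peaks were higher and 21.6% lower. Nfe2l1 rose at each of 3 peaks (1.12 ± 0.13, 1.01 ± 0.12 and 0.87 ± 0.19).

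Markers of other cells moved as well. Promoter peaks were found for all 7 dentate granule neuron markers and all 5 general neuronal markers, and also for 7 of 7 oligodendrocyte, 4 of 4 oligodendrocyte precursor, 5 of 6 astrocyte, 4 of 7 microglial, 2 of 6 endothelial and mural and 1 of 6 GABAergic interneuron markers. The genes with none were Aqp4, Aif1, C1qa, Trem2, Cldn5, Pecam1, Flt1, Tek, Gad2, Slc32a1, Sst, Pvalb and Vip. With the drug in Context mice 5 of 15 oligodendrocyte promoter peaks, 1 of 4 of their precursors, 3 of 5 microglial, 2 of 10 granule neuron and 2 of 10 general neuronal peaks fell, with 0 of 5 of astrocytes, 0 of 3 endothelial and mural and 0 of 1 of interneurons, where 21.3% of promoter peaks fell. The summed level of the oligodendrocyte peaks was 141 to 156 CPM in HDACi-Context and 182 to 198 CPM in Veh-Context libraries, that of their precursors 9.97 to 15.7 and 18.3 to 19.3 CPM, and that of the microglial peaks 24.0 to 25.8 and 27.2 to 31.6 CPM. The endothelial and mural peaks summed to 9.25 to 10.6 CPM in HDACi-Context and 11.3 to 12.2 CPM in Veh-Context libraries. General neuronal peaks summed to 382 to 405 CPM in HDACi-Context and 469 to 523 CPM in Veh-Context libraries, and granule neuron peaks to 255 to 317 and 328 to 356 CPM. The sums of astrocyte peaks (41.6 to 46.6 and 43.4 to 49.6 CPM) and of the interneuron peak (5.37 to 7.01 and 6.48 to 7.24 CPM) overlapped between the same groups. Over all peaks of these genes, oligodendrocyte sums were 532 to 594 CPM in HDACi-Context and 681 to 738 CPM in Veh-Context libraries. In the same groups precursors had 38.5 to 50.4 and 58.3 to 66.4 CPM, microglia 85.8 to 96.1 and 103 to 106 CPM. Endothelial and mural sums also stayed apart. General neuronal sums (2274 to 2359 and 2276 to 2473 CPM) and granule neuron sums (1575 to 1949 and 1758 to 1967 CPM) overlapped. Astrocyte and interneuron sums overlapped too. With shock in drug mice 7 of 15 oligodendrocyte, 3 of 4 precursor, 3 of 5 microglial, 6 of 10 granule neuron, 6 of 10 general neuronal, 3 of 5 astrocyte, 1 of 3 endothelial and mural and 1 of 1 interneuron peaks rose, and 1 microglial and 1 granule neuron peak fell, where 45.3% of promoter peaks rose. The part of other cells in the members' values was not tested.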

How the data were processed

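H3K27ac libraries of 12 samples were analysed; inputs were not analysed here. Per the submitters' processing notes reads were handled on mm10 with HOMER 4.11, MACS2, DESeq2 1.28.1, DiffBind 2.16.2, Bowtie2 2.3.5, Trimmomatic 0.38 and SAMtools 1.9; settings are not given in the sources used here. The authors deposited raw counts per peak, with a smallest count of 1. Per the file headers a chromatin state and a percent for it stand beside each peak; the percent was not used. Column names give no antibody and were taken as H3K27ac. The series text states other numbers of treatments and replicates than the labels, which were followed.

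Counts were tested in R 4.3.3 with edgeR 4.0.16 (TMM, filterByExpr minimum 10, robust quasi-likelihood F test, 1 term per group, all 12 libraries), with Benjamini-Hochberg adjustment over 144014 peaks. All 149 members passed the filter. SE is the log2 fold change over the square root of F. Log2 CPM used a prior count of 2. Alternatives were DESeq2 1.42.0, RLE factors, library totals, TMM on promoter peaks, loess offsets (limma 3.58.1), no filter, a replicate block and each library left out. The test was tried on simulated counts. Peaks named were, per comparison, the 10 largest called rises and falls and a list of genes of known role; Fbxo48 and Fbxw2's second peak in the text were singled out after their values were seen, as were the partner genes. Some results on single genes are not reported here. The members and lists were chosen with earlier results of these data known.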

Additional observations from a re-analysis of the deposited data

How the results depend on the processing

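Median changes and counts of calls kept their direction under RLE factors, no filter and the replicate block. TMM on promoter peaks alone moved most of them. It gave 1 fall in CFC mice against 4, 13 rises and 12 falls against 0 and 36 for the drug in Context mice, 13 rises and 22 falls against 3 and 38 over both behaviours, 6 rises and 4 falls against 21 and 1 for shock in vehicle mice, and 19 rises and 34 falls against 55 and 3 for shock in drug mice. DESeq2 gave 1 rise and 1 fall for the drug in CFC mice, 13 rises for shock in vehicle mice and 0 falls for shock in drug mice. Loess offsets gave 2 rises for the drug in Context mice, and library totals 5 falls for shock in drug mice.

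Without each library in turn, falls numbered 0 to 5 for the drug in shocked mice, 14 to 41 in unshocked mice and 34 to 38 over both, and rises 0 to 0, 0 to 1 and 0 to 3. Rises numbered 1 to 24 for shock in vehicle mice, 48 to 57 for shock in drug mice and 0 to 6 for the difference in drug effect, and falls 0 to 1, 0 to 3 and 0 to 0.

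For shock in drug mice, scaling on promoters turned 62 of 149 members from higher to lower, of which 14 were then called lower. Among the named peaks it reversed Fbxo11 (Fbxo11_132656 to −0.33), Fbxo41 (Fbxo41_50771, called at 0.44, to −0.048), Fbxw7 (Fbxw7_24493 to −0.39, and to −0.46 with loess offsets) and Psmd14 (Psmd14_13983 to −0.44). The cause was not tested.

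No label says that a replicate number marks a shared animal, cage or day. Of 18 same-numbered pairs of libraries, 2 had a correlation over 0.1 (median 0.00072, range −0.28 to 0.35). Pairs of unlike number had a median of 0.0061 and ran from −0.29 to 0.24. With 3 libraries per group these values cannot exclude a shared batch. The replicate block gave 3 falls for the drug in shocked mice, 34 in unshocked mice and 38 over both, with 3 rises; 21 rises and 1 fall for shock in vehicle mice; 55 rises and 2 falls for shock in drug mice; and 0 calls for the difference. In the drug comparison in unshocked mice the median SE was 0.26 for the 74 members below 5.02 CPM and 0.17 for the other 75.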
